A study of Mus musculus with 48 samples.

Results

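The keratins are the intermediate filament proteins of epithelial cells, and 42 of the 38385 probesets on a mouse expression array carried a keratin gene symbol, for 41 of the 19147 named genes. Members were chosen by symbol alone, as Krt followed by a number and, where present, 1 letter, so that the keratin-associated proteins of the hair shaft were left out. Each was placed by its known site in skin: 1 basal, 6 suprabasal, 3 activated, 1 sebaceous duct, 1 companion layer, 6 inner root sheath and 8 hair shaft genes, with 6 genes of simple epithelium and 9 others. Of the 42 probesets, 38 (38 genes) had a mean over all arrays above the low-signal limit of 2.93 on the log2 scale and were tested, and Krt13, Krt76, Krt222 and a second Krt40 probeset were below it. Of 54 keratin genes in RefSeq, 13 were not matched to a probeset by symbol, among them Krt5, Krt14, Krt28, Krt32, Krt36, Krt6b and Krt74, and were not analysed here.

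The 48 arrays, 1 per mouse, came from 3 animal studies of inhibitors of diacylglycerol O-acyltransferase 1 (DGAT1), the enzyme that joins a fatty acid to diacylglycerol to make triglyceride. The mice were male diet-induced obese C57BL/6, given as 8 weeks old in the labels, on a high-fat diet with 60% of calories from fat. They were dosed by mouth for 14 days with a compound or with methylcellulose vehicle. Biopsies of 3 to 5 mm2 of skin were then taken. Study 1 held vehicle, Cpd1 and Cpd2 with 8 mice each, Study 2 held vehicle, Cpd2 and Cpd6 with 4 mice each, and Study 4 held vehicle, Cpd6 and Cpd18 with 4 mice each. Cpd2 and Cpd6 were classed as skin-positive because the sebaceous glands atrophied, and Cpd1 and Cpd18 as skin-negative. Cpd6 and Cpd18 belong to the same chemical series, and Cpd1 and Cpd2 to a different series each. The study's methods give 30 mg/kg for the compounds, but the Cpd1 mice examined by histology had 3 mg/kg, so the doses of Cpd1 and Cpd2 in Study 1 may not match. The labels name dorsal skin, while the methods allow dorsal and ventral sites.

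Keratins work in pairs, an acidic type I with a basic type II chain, and each layer of the epidermis and of the hair follicle makes its own pairs. Basal cells carry Krt15 beside the Krt5 and Krt14 pair, cells that have left the basal layer switch to Krt1 and Krt10, and Krt6a, Krt16 and Krt17 mark both the outer root sheath and epidermis activated by wounding or inflammation. In a follicle that is growing hair, the inner root sheath makes Krt25 to Krt28 and Krt71 to Krt74, the companion layer between the inner and outer sheaths makes Krt75, and the cortex and cuticle of the shaft make the hard hair keratins. A resting follicle has no inner root sheath and no growing shaft. Krt79 marks the canal that connects the sebaceous gland to the skin surface.

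The inner root sheath and hair shaft keratins were the members whose levels moved most, so the 250 bases before the RefSeq start of 2 genes of each site are printed, 5′ to 3′ on the gene's own strand (GRCm38.p6, minus strand in all 4). Krt25 lies at chr11:99322952-99323201, Krt71 at chr15:101743098-101743347, Krt31 at chr11:100050552-100050801 and Krt34 at chr11:100041555-100041804. Capitals mark TATAAA, the core of a TATA box, and TTTATG, a short sequence of the kind posterior Hox proteins bind.
Krt25: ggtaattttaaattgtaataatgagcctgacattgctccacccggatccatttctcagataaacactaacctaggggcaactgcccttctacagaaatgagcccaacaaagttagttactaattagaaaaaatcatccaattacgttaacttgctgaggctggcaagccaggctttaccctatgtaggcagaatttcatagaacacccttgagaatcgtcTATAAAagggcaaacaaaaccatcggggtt
Krt71: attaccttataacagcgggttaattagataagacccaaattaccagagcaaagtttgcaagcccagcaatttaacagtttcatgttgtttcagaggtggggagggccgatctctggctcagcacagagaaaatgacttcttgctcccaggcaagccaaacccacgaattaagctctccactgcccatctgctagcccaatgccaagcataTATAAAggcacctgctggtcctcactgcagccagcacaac
Krt31: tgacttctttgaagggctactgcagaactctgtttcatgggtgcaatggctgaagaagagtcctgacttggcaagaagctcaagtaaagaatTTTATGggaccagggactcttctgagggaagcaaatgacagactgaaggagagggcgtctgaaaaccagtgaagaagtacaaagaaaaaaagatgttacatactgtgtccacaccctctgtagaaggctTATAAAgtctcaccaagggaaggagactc
Krt34: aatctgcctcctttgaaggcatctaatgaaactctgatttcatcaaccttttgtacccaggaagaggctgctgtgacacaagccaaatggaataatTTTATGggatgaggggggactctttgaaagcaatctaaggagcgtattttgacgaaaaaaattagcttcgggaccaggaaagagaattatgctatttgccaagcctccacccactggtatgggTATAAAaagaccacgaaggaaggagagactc
Windows were held for 28 keratin genes, and motifs were searched on both strands. TATAAA was in 6 of 6 inner root sheath windows and 4 of 5 hair shaft windows, against 12.4% of all 32851 windows of this length. The only match for Krt72 and for Krt84 was on the opposite strand, 203 and 206 bases before the start. No window was held for the hair shaft genes Krt33a, Krt35 and Krt86. TTTATG, which differs from the reverse complement of TATAAA only in its last base, was in 0 of 6 inner root sheath and 5 of 5 hair shaft windows, against 10.8% of all. CTTTGA, the core bound by LEF1 and TCF proteins, was in 0 of 6 and 3 of 5, against 13.8%. TGANTCA, the AP-1 site, was in none of these 11 windows and in 6.75% of all. TTTATG was not confined to the hair shaft. It was in 1 of 4 suprabasal, 0 of 1 sebaceous duct, 1 of 1 companion layer, 1 of 5 simple epithelium and 3 of 7 other keratin windows. Matches on the opposite strand lay 34 bases before the start in Krt84, 33 in Krt75, 32 in Krt23 and 30 in Krt13. TATAAA of Krt25 and Krt73 lay 30 bases before the start. These are matches of letters in a short window, and no protein was measured on them.

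All levels are log2 of the deposited normalized intensity, so a difference of 1 is 2-fold, and array medians lay between 26.4 and 30.8 before the log. The probes of different genes differ in brightness, so levels are compared between mice for 1 gene at a time. Lists of marker genes were read beside the keratins. Skeletal muscle markers (12 of 12 measured) had a median log2 level of 12.54 (10.93 to 12.69) with vehicle in Study 1 and 10.22 (5.72 to 12.48) with Cpd2, with 3 Cpd2 mice at 5.72, 6.83 and 8.05 (the 3 low-muscle mice), and all 12 were called lower with Cpd2. In that comparison 6.00% of all probesets were called lower. Adipocyte markers (5 tested) had none called in any comparison. The body position genes Hoxa9, Hoxa10 and Hoxc10 had a median of 7.30 (6.93 to 7.45) with Cpd1 in Study 1, against 5.09 (4.32 to 6.02) with vehicle and 5.01 (3.44 to 6.50) with Cpd2, and 6.72 to 7.64 over all mice of Studies 2 and 4. A whole biopsy does not tell fewer cells of a type from less RNA per cell, and this holds for every keratin below.

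**Figure D1:**
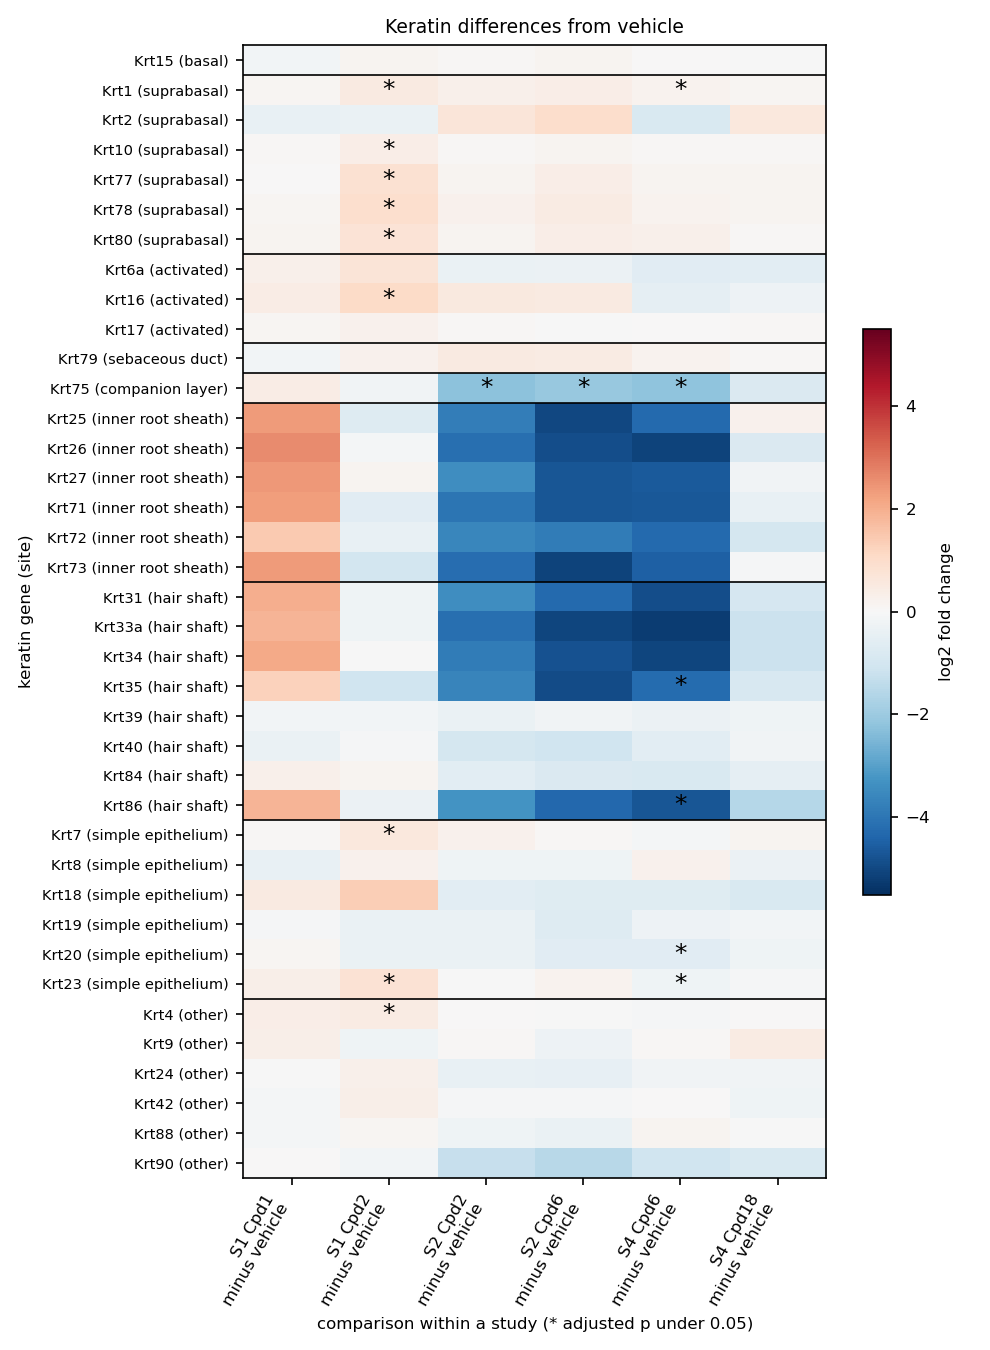
Log2 fold change from the vehicle of the same study (colour) for the 38 keratins tested (rows, grouped by site) in 6 comparisons (columns), with a star where the adjusted p was under 0.05. The inner root sheath and hair shaft rows are blue with Cpd2 and Cpd6 in Studies 2 and 4 and paler with Cpd18, and the suprabasal rows are starred with Cpd2 in Study 1.

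The question first asked of each site was whether its keratins differed from vehicle within a study. Most inner root sheath and hair shaft keratins had lower levels in mice given Cpd2 or Cpd6 in Studies 2 and 4 than in 3 of the 4 vehicle mice of those studies. The split was not complete. Cpd2 replicate 4 of Study 2 kept Krt25 at 10.72, Krt27 at 10.08 and Krt33a at 8.35, and Krt39 and Krt84 were low in every group, at 3.30 to 6.24 over both studies. Krt71, the type II keratin of all inner root sheath layers, had log2 levels of 3.59, 9.21, 10.71 and 11.59 in the vehicle mice of Study 2. The Cpd2 mice had 3.15, 5.13, 3.02 and 7.74, and the Cpd6 mice had 3.51, 3.32, 5.93 and 3.49. So 3 of 4 vehicle mice lay above every treated mouse, and vehicle replicate 1 lay among the treated mice. The difference was −4.02 (SE 1.42, limma adjusted p = 0.470) with Cpd2 and −4.71 (SE 1.42, limma adjusted p = 0.174) with Cpd6.

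Krt31, a type I keratin of the hair cortex, had the same split of mice. Vehicle mice of Study 2 had 4.13, 8.48, 10.67 and 11.56, Cpd2 mice 5.31, 4.45, 3.96 and 7.42, and Cpd6 mice 3.95, 3.62, 5.61 and 4.47. Again replicate 1 was the vehicle mouse among the treated ones. Krt33a, another cortex keratin, had 4.77, 9.09, 11.56 and 12.71 with vehicle and no Cpd6 mouse above 6.68. Over the 14 inner root sheath and hair shaft keratins tested, all 14 had a negative difference with Cpd2 (median −3.61) and all 14 with Cpd6 (median −4.71), against medians of 0.02 over all probesets for each compound. Of them 11 with Cpd2 and 13 with Cpd6 had an unadjusted p under 0.05, where 3.68% and 5.26% of all probesets were lower at that level, but 0 of 14 passed the adjustment in either comparison (lowest limma adjusted p = 0.363 and 0.126). With each mouse left out in turn, Krt71 ran from −5.74 to −3.08 with Cpd2 and from −6.44 to −3.77 with Cpd6, and was called in 1 of 8 fits for each, the one without the low vehicle replicate 1. That mouse was singled out by its Krt71 level, so the larger difference without it is a description and no support.

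Study 4 had a like pattern with Cpd6. Krt71 had 11.32, 3.22, 10.32 and 11.13 in the vehicle mice and 2.88, 3.66, 4.28 and 6.49 in the Cpd6 mice. One vehicle mouse, replicate 2, was again as low as the treated mice. The difference was −4.67 (SE 1.70, limma adjusted p = 0.0892), and ran from −6.60 to −3.90 with 1 mouse left out, called in 1 of 8 fits, the one without that mouse. Krt35, a keratin of the early cortex and hair matrix, fell by 4.22 (SE 1.14, limma adjusted p = 0.0318), from 7.86, 2.69, 6.67 and 8.46 with vehicle to 2.02, 2.08, 2.10 and 2.60 with Cpd6. The groups did not overlap, as for 18.9% of all probesets, and the Cpd6 levels were below the 2.93 limit used for testing. Krt86, a type II cortex keratin, fell by 4.71 (SE 1.28, limma adjusted p = 0.0324), from 9.62, 2.83, 7.99 and 9.43 to 2.37, 2.53, 2.52 and 3.62, with vehicle replicate 2 below the highest Cpd6 mouse. For Krt86 too 3 of 4 Cpd6 mice lay below the 2.93 limit, as did that vehicle mouse, so both falls are measured against low signal and their size is uncertain.

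In Study 4 as a whole Cpd6 had 6 keratins called of 38, 1 higher and 5 lower, where 10.7% of all probesets were called, 4.56% higher and 6.17% lower. Krt35 and Krt86 were the called follicle keratins of the 14. All 14 had a negative difference (median −4.54, against 0.01 over all probesets) and 12 had an unadjusted p under 0.05, where 15.1% of all probesets were lower at that level. Krt31 (−4.88, SE 1.5) and Krt33a (−5.20, SE 1.63) stood next to the threshold, with limma adjusted p = 0.0505 and 0.0541. Krt25, a type I keratin of the inner root sheath, kept 1 high mouse with Cpd6 (4.68, 4.32, 6.57 and 9.41) against 12.65, 4.50, 12.38 and 12.62 with vehicle. Both Krt35 and Krt86 lost the call in 7 of 8 fits with 1 mouse left out (Krt35 −5.47 to −3.54, Krt86 −6.25 to −3.99), that is in every fit but the one without vehicle replicate 2.

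Cpd18, the skin-negative compound of the same series, had 3 mice with high and 1 mouse with low Krt71 and Krt31, as vehicle had. Krt71 was 3.66, 10.12, 9.92 and 10.68 with Cpd18, and Krt31 was 3.67, 8.50, 9.08 and 10.05. No keratin of the 38 was called in Cpd18 against vehicle (0.00347% of all probesets were called, and 1 keratin, against 7.96% of all, had an unadjusted p under 0.05), and the 14 follicle keratins had a median difference of −0.65. These values rest on the low vehicle replicate 2 as well. Without it Cpd18 minus vehicle went from −0.40 to −2.33 for Krt71, from −0.94 to −2.71 for Krt31, from −1.18 to −3.06 for Krt33a and from −1.58 to −3.13 for Krt86, none of them called (limma adjusted p = 0.257 to 0.563). Over 8 fits with 1 mouse left out, Cpd18 minus vehicle ran from −2.33 to 1.24 for Krt71 and from −2.71 to 0.45 for Krt31. It ran from −3.06 to 0.35 for Krt33a and from −3.13 to −0.62 for Krt86. For Krt71, Krt31 and Krt33a the sign thus depended on the mouse left out. Set directly against Cpd18, Cpd6 had a negative difference in all 14 (median −3.89), of which 11 had an unadjusted p under 0.05, where 7.30% of all probesets were lower at that level. For Krt71 that difference was −4.27 (95% interval −7.89 to −0.65, limma adjusted p = 0.319), and no keratin was called in it, where 0.490% of all probesets were.

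Krt27, Krt73 and Krt34 split the mice of Study 4 much as Krt71 did. Krt27, a type I keratin of the inner root sheath, had 12.70, 3.63, 12.21 and 12.70 with vehicle in Study 4, 4.23, 4.68, 5.38 and 8.55 with Cpd6, and 4.87, 11.58, 11.69 and 12.35 with Cpd18. Its type II neighbor Krt73, of the inner root sheath cuticle, had 11.23, 2.80, 10.48 and 11.21 with vehicle, 3.09, 3.03, 4.48 and 7.23 with Cpd6 and 4.75, 10.35, 9.98 and 10.46 with Cpd18. Krt34, a cortex keratin, had 11.24, 3.41, 10.32 and 11.12, then 3.49, 3.92, 2.91 and 5.62, then 3.51, 7.65, 9.74 and 10.40 in the same order of groups. For all 3 genes 1 vehicle mouse lay below the highest Cpd6 mouse, and for Krt27 and Krt73 below every Cpd6 mouse, while 1 Cpd18 mouse lay within the range of the Cpd6 mice. Krt39 had no such split in Study 4, with 3.49 to 4.59 for vehicle, 3.67 to 3.94 for Cpd6 and 3.82 to 4.02 for Cpd18, and for Krt84 a pair of Cpd18 mice (4.28 and 4.33) lay at the Cpd6 level. The Cpd6 differences from vehicle were −4.60 (SE 1.91, limma adjusted p = 0.133) for Krt27, −4.48 (SE 1.69, limma adjusted p = 0.101) for Krt73 and −5.04 (SE 1.60, limma adjusted p = 0.0564) for Krt34. Krt40, a cuticle keratin, moved less, with −1.10 (SE 0.49, limma adjusted p = 0.394) with Cpd6 in Study 2 and −0.59 (SE 0.31, limma adjusted p = 0.234) in Study 4, and its second probeset, below the low-signal limit, lay at 1.82 to 3.55 in Study 2 and 2.04 to 2.89 in Study 4.

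In Study 1 the follicle keratins were spread over the whole range within each group. Krt71 had 3.04 to 11.77 with vehicle (median 4.76), 3.99 to 10.96 with Cpd1 (median 9.39) and 3.64 to 9.89 with Cpd2 (median 4.18). Above a log2 level of 8, a limit chosen after the values were seen, lay 2 of 8 vehicle mice, 6 of 8 Cpd1 mice and 1 of 8 Cpd2 mice, compared with 3 of 4 vehicle mice in Studies 2 and 4, 3 of 4 Cpd18 mice, 0 of 4 Cpd2 mice in Study 2 and 0 of 8 Cpd6 mice. The count depends on the gene. Krt25 was above that level in 4 of 8 vehicle, 6 of 8 Cpd1 and 3 of 8 Cpd2 mice of Study 1, in 2 of 4 Cpd2 mice of Study 2 and in 1 of 4 Cpd6 mice of each study, and Krt27 in 1 of 4 mice of each of those 3 groups. The groups of Study 1 overlapped, and none of the 14 was called in any of its comparisons. The median difference of the 14 was 1.94 for Cpd1 minus vehicle, −0.23 for Cpd2 minus vehicle and −2.21 for Cpd2 minus Cpd1. The body position genes were higher in the same Cpd1 mice, and their part in these differences was not tested.

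**Figure D2:**
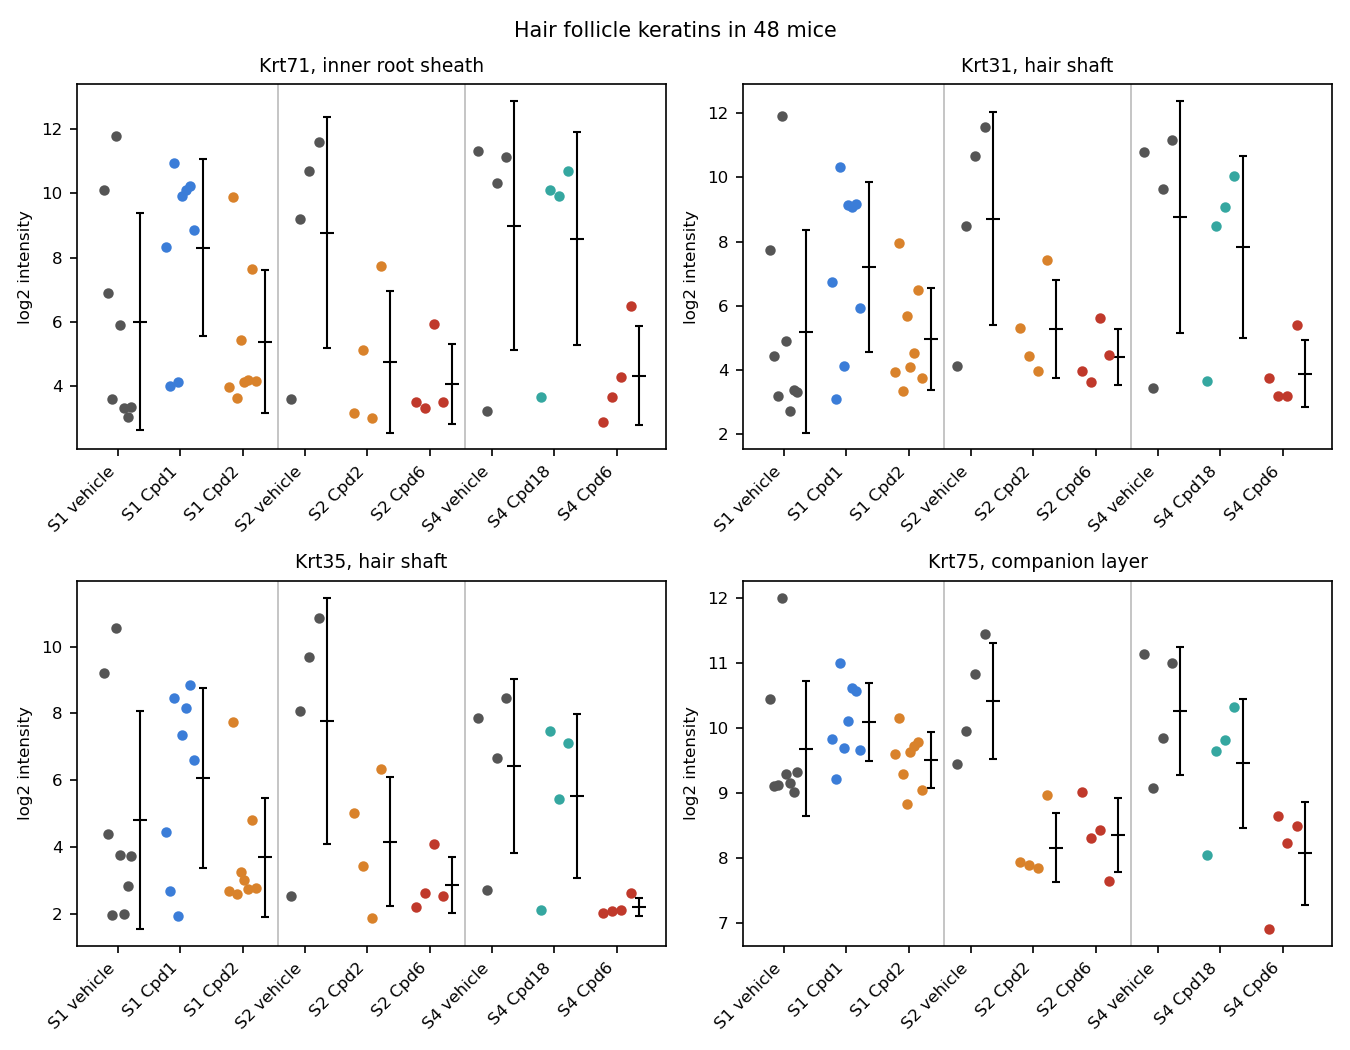
Log2 intensity of Krt71, Krt31, Krt35 and Krt75 in each of the 48 mice (points, coloured by treatment), by study and treatment group, with the group mean and SD as black bars. In Studies 2 and 4 the Cpd2 and Cpd6 mice sit low in all 4 panels, 1 vehicle mouse of each study and 1 Cpd18 mouse sit low with them for Krt71, Krt31 and Krt35, while for Krt75 the Cpd2 and Cpd6 mice are apart from all vehicle mice of their study, as are the Cpd6 mice of Study 4 for Krt35.

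Krt75, the type II keratin of the companion layer, was the 1 keratin called with Cpd2 in Study 2 and with Cpd6 in both Study 2 and Study 4, and it fell each time. In Study 2 vehicle mice had 9.45, 9.95, 10.82 and 11.44, Cpd2 mice 7.94, 7.90, 7.84 and 8.96, and Cpd6 mice 9.02, 8.31, 8.44 and 7.65. Every treated mouse lay below every vehicle mouse, including vehicle replicate 1, which was among the treated mice for Krt71 and Krt31. The fall was 4.77-fold with Cpd2 (log2 −2.26, SE 0.39, limma adjusted p = 0.0347) and 4.18-fold with Cpd6 (−2.06, SE 0.39, limma adjusted p = 0.0316). Few probesets were called in these 2 comparisons, 0.129% with Cpd2 (0.0868% lower) and 0.379% with Cpd6 (0.288% lower), while 3.35% and 6.83% of all probesets had groups that did not overlap.

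In Study 4 Krt75 had 11.14, 9.07, 9.84 and 10.99 with vehicle, 6.91, 8.65, 8.22 and 8.50 with Cpd6, and 8.04, 9.65, 9.81 and 10.33 with Cpd18. Cpd6 mice again lay below all vehicle mice, and Cpd18 mice overlapped both groups. The fall with Cpd6 was 4.57-fold (−2.19, SE 0.51, limma adjusted p = 0.0177). Cpd18 had −0.81 (SE 0.51, limma adjusted p = 0.717), and Cpd6 minus Cpd18 was −1.39 (95% interval −2.48 to −0.29, limma adjusted p = 0.294). The direction was kept in every fit with 1 mouse left out, but the call was not. It was lost in 6 of 8 such fits for Cpd2 in Study 2 (−2.58 to −1.91, kept without Cpd2 replicate 4 or vehicle replicate 1) and in 5 of 8 for Cpd6 in Study 2 (−2.38 to −1.72, kept without Cpd6 replicate 1 or vehicle replicate 1 or 2). In Study 4 it was lost in 2 of 8 (−2.59 to −1.80, without Cpd6 replicate 1 or vehicle replicate 4).

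In Study 1 Krt75 had 9.02 to 12 with vehicle (median 9.22), 9.21 to 11 with Cpd1 (median 9.97) and 8.83 to 10.16 with Cpd2 (median 9.61), and the groups overlapped. Cpd2 minus vehicle was −0.18 there (SE 0.34, limma adjusted p = 0.792). The difference between the Cpd2 effects of the 2 studies was 2.08 (Study 1 minus Study 2, 95% interval 0.81 to 3.35, limma adjusted p = 0.0830), which did not pass.

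The follicle keratins followed a list of genes named here for the hair matrix, the dividing cells at the base of a growing follicle. The 12 genes listed held Tchh, Padi1 and Padi3 beside regulators, so the list was not confined to dividing cells. The hair matrix list (9 of 12 genes measured, among them Shh, Hoxc13, Foxn1, Lef1 and Dlx3) had a mean log2 level of 5.54, 6.56, 7.32 and 7.99 in the vehicle mice of Study 2 and 5.26 to 5.70 in its Cpd6 mice. In Study 4 it had 7.77, 5.82, 7.11 and 7.97 with vehicle, 5.48 to 5.78 with Cpd6, and 5.82, 7.35, 6.59 and 7.45 with Cpd18. The vehicle mouse low in Krt71 in each study was the one lowest in this list. With Cpd6 in Study 4, 4 of the 9 genes were called lower, where 6.17% of all probesets were. Among them was Hoxc13, a regulator of hair keratin genes, at −2.17 (SE 0.48, limma adjusted p = 0.0140). In Study 2 none of the 9 was called with either compound. There 5 with Cpd2 and 7 with Cpd6 had an unadjusted p under 0.05, as had 7.38% and 11.8% of all probesets. Melanocyte markers, made by the pigment cells of growing follicles among others, were called lower in 5 of 5 with Cpd6 in Study 4 (group levels 4.67 to 5.12, against 5.34 to 7.68 with vehicle) and 1 of 5 in Study 2, and macrophage markers in 4 of 4 with Cpd6 in Study 4 (6.87 to 7.12, against 7.41 to 7.75). With Cpd18 neither list was called, but all 5 melanocyte markers (4.88 to 6.36) and all 4 macrophage markers (6.82 to 7.32) had an unadjusted p under 0.05, with median differences of −1.16 and −0.71, the latter beside −0.72 with Cpd6. Of all probesets 0.288% were called lower with Cpd6 in Study 2, and 7.96% had an unadjusted p under 0.05 with Cpd18. The part of either list in the keratin differences was not tested. Hair matrix level and treatment moved together in these mice and cannot be told apart. With the level as a covariate no keratin was called for either compound in Study 2 or for Cpd6 against vehicle in Study 4 (Krt75 −1.36, −0.95 and −0.51, Krt35 0.26 and Krt86 −0.31).

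Within groups, after each group's mean was taken away, the 48 mice showed which keratins moved together. The values are descriptions over mice that share 1 platform and 1 normalization. The median correlation between inner root sheath keratins was 0.96 over 15 gene pairs, and between inner root sheath and hair shaft keratins 0.90 over 48 gene pairs. Krt71 and Krt31 correlated at 0.95, and Krt31 and Krt86, a type I and a type II cortex keratin, at 0.95. Of the hair shaft keratins Krt39, named after its value was seen, was loosest, at 0.58 with the other follicle keratins. Outside these sites, Krt75 correlated with the hair matrix list at 0.85, Krt18 at 0.86, Krt90 at 0.80, Krt17 at 0.79 and Krt6a at 0.73. Krt10 correlated with it at −0.52, Krt15 at −0.24 and Krt79 at 0.01.

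**Figure D3:**
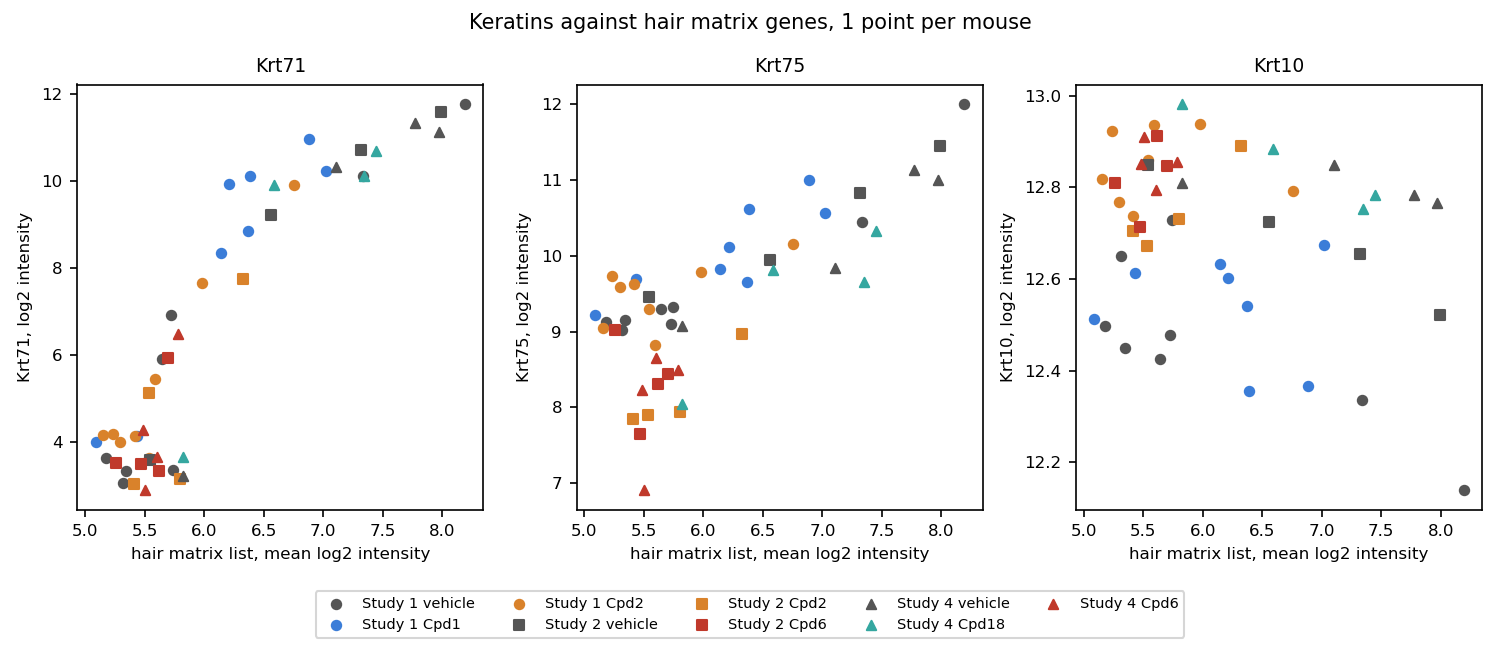
Log2 intensity of Krt71, Krt75 and Krt10 (vertical axes) against the mean log2 intensity of the hair matrix list (horizontal axes), 1 point per mouse, with colour for treatment and shape for study. Krt71 climbs with the list from about 3 to almost 12, Krt75 climbs too but has its lowest points among Cpd2 and Cpd6 mice of Studies 2 and 4, and Krt10 tends to lower values where the list is high.

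The suprabasal keratins rose with Cpd2 in Study 1. Of 6 tested, 5 were called higher and none lower: Krt1, Krt10, Krt77, Krt78 and Krt80, with a median difference of 0.61 over the 6, against 0.04 over all probesets. Over all keratins 9 of 38 were called, all higher, where 13.1% of all probesets were called, 7.09% higher and 6.00% lower. Krt10, the main type I keratin of the spinous layer, had 12.14 to 12.73 with vehicle (median 12.46) and 12.74 to 12.94 with Cpd2 (median 12.84). The 2 groups did not overlap, and the rise was 1.30-fold (0.38, SE 0.07, limma adjusted p = 0.000253). Its partner Krt1 had 11.20 to 11.97 with vehicle (median 11.63) and 11.85 to 12.28 with Cpd2 (median 12.14), overlapping slightly, and rose 1.40-fold (0.49, SE 0.09, limma adjusted p = 0.000389).

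Krt77, a type II keratin of the suprabasal epidermis, had 10.91 to 11.82 with vehicle (median 11.30) and 12.05 to 12.32 with Cpd2 (median 12.17), without overlap, and rose 1.79-fold (0.84, SE 0.17, limma adjusted p = 0.00157). Krt78, another type II keratin of differentiating epidermis, went from 8.66 to 9.79 (median 9.14) to 9.88 to 10.32 (median 10.16), also without overlap, and rose 1.90-fold (0.92, SE 0.18, limma adjusted p = 0.000900). Krt80 rose by 0.73 (SE 0.14, limma adjusted p = 0.000751). Of all probesets 1.91% had groups that did not overlap in this comparison. The 5 calls were kept in each of 16 fits with 1 mouse left out, and in the fit that left out the 3 low-muscle mice (Krt1 0.39, Krt10 0.35, Krt77 0.82, Krt78 0.92 and Krt80 0.72). Muscle markers had a median of 10.22 over all 8 Cpd2 mice, below the lowest vehicle mouse (10.93). Leaving out 3 mice therefore did not take the whole muscle difference away. Krt2, a keratin of the upper epidermis, had −0.35 (SE 0.30, limma adjusted p = 0.502) and was low in this study, with 3.51 to 6.72 over the 24 mice.

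The same Cpd2 mice had higher T cell markers (4 of 4 tested called, median level 9.01 against 8.44 with vehicle) and lower skeletal muscle markers. In that comparison 7.09% of all probesets were called higher and 6.00% lower. The part of either list in the keratin differences was not tested beyond leaving out those 3 mice, which left part of the muscle difference in place. The Cpd1 mice did not share the suprabasal rise. Their differences from vehicle were 0.12 for Krt1, 0.07 for Krt10, 0.03 for Krt77, 0.12 for Krt78 and 0.15 for Krt80, and no keratin of 38 was called in Cpd1 minus vehicle (0.327% of all probesets were called, and 5 keratins, against 13.2% of all, had an unadjusted p under 0.05). Cpd2 minus Cpd1 had 11 of 38 keratins called, all higher, where 17.2% of all probesets were called and 8.99% were higher, with the doses perhaps not matched. In this comparison the body position genes were called lower in 3 of 3 (median −1.75), where 8.25% of all probesets were. Their part in the keratin differences was not tested. The 5 suprabasal keratins were among the 11 called, at 0.36 for Krt1, 0.31 for Krt10, 0.81 for Krt77, 0.81 for Krt78 and 0.58 for Krt80. With the 3 low-muscle mice left out 6 of the 11 were called (Krt7, Krt10, Krt77, Krt78, Krt79 and Krt80). Groups did not overlap for Krt10, Krt77 and Krt23 in this comparison, as for 3.14% of all probesets.

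**Figure D4:**
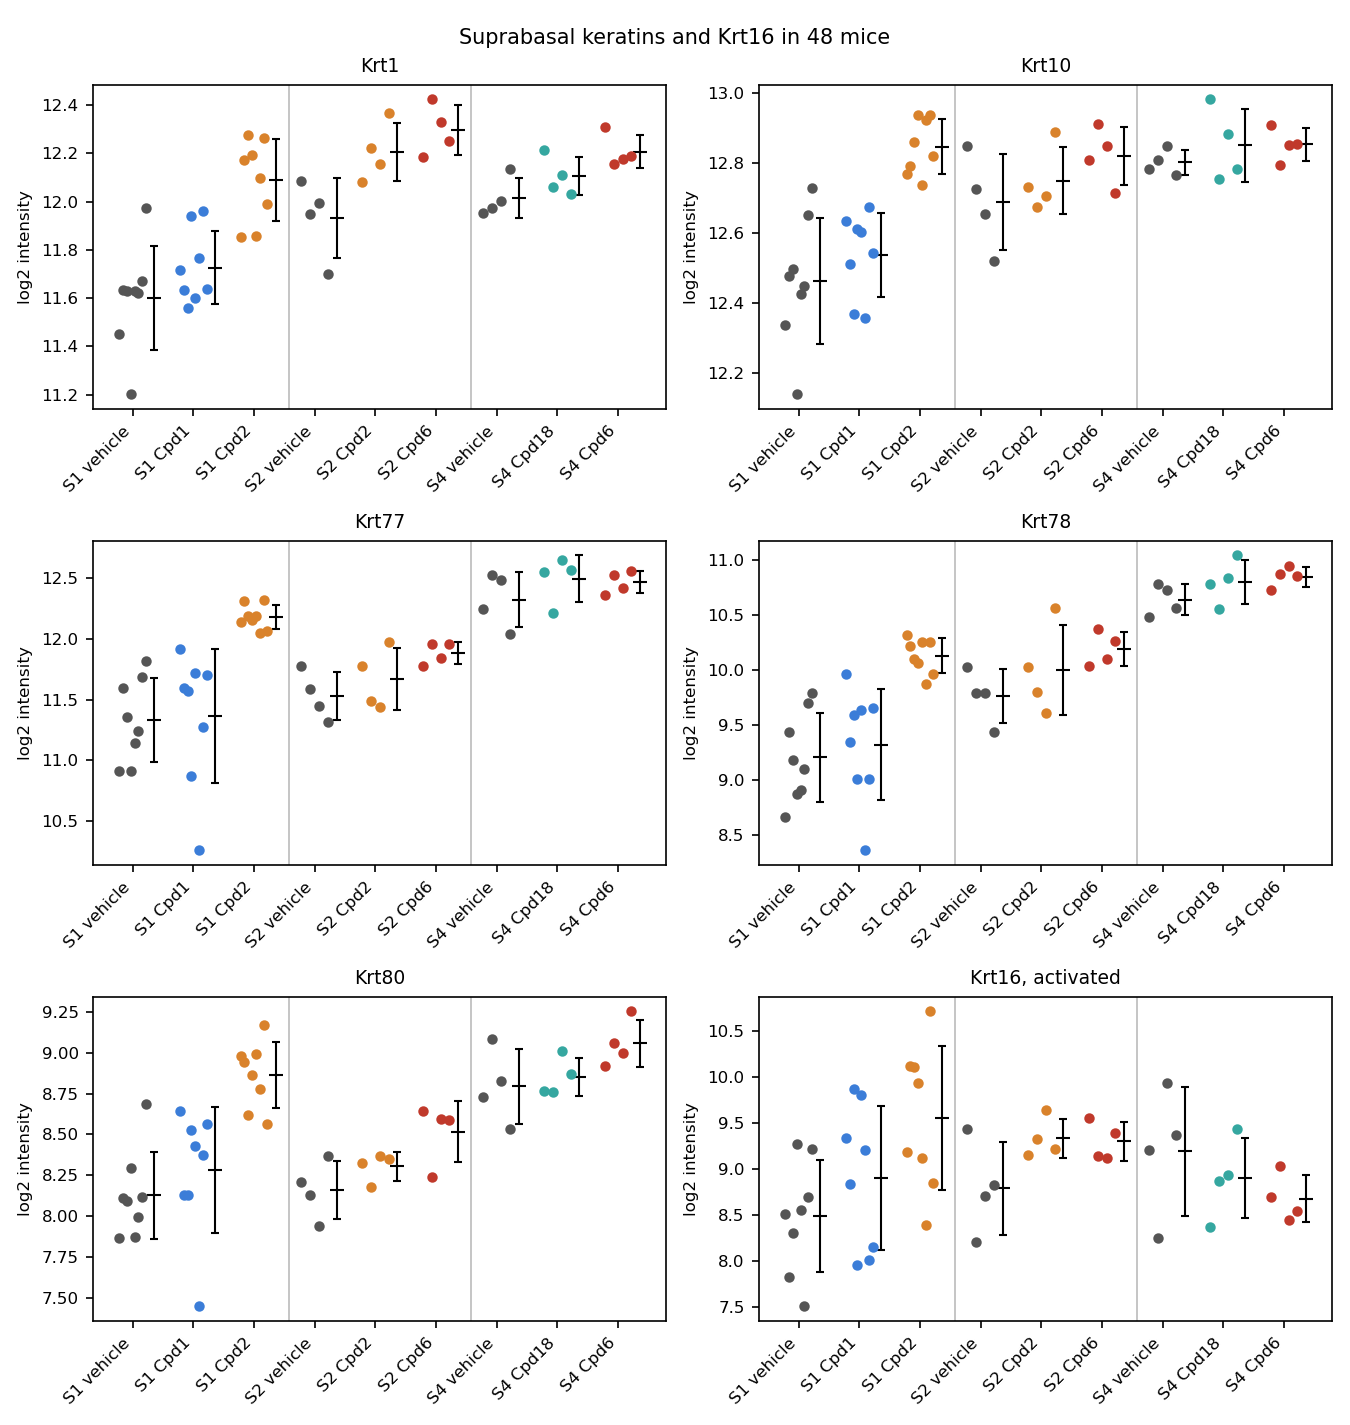
Log2 intensity of 5 suprabasal keratins and of Krt16 in each of the 48 mice (points, coloured by treatment), by study and treatment group, with the group mean and SD as black bars. The Cpd2 mice of Study 1 lie above the vehicle mice of that study without overlap for Krt10, Krt77 and Krt78, while in Studies 2 and 4 the groups lie closer together, though Krt1 with Cpd6 is above all vehicle mice of the same study in both.

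In Study 2 the suprabasal differences were smaller, and none of the 6 was called. With Cpd6 all 6 were above 0 (median 0.36, against 0.02 over all probesets) and 4 had an unadjusted p under 0.05, where 6.50% of all probesets were higher at that level. Krt1 had 12.08, 11.95, 12 and 11.70 with vehicle and 12.18, 12.42, 12.33 and 12.25 with Cpd6. Those groups did not overlap, and the difference was 0.37 (SE 0.09, limma adjusted p = 0.0914). Krt77 had 0.35 (SE 0.12) and Krt78 had 0.43 (SE 0.17) with Cpd6. For both the lowest Cpd6 mouse was level with the highest vehicle mouse, at 11.78 for Krt77 and 10.03 for Krt78. Of all probesets 6.83% had groups that did not overlap in this comparison. With Cpd2 all 6 were above 0 as well (median 0.19), with Krt1 at 0.27 (SE 0.09, limma adjusted p = 0.420) and Krt10 at 0.06.

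In Study 4 Krt1 was the 1 keratin called higher with Cpd6. It had 11.95, 11.97, 12 and 12.13 with vehicle, 12.31, 12.16, 12.18 and 12.19 with Cpd6 and 12.21, 12.06, 12.11 and 12.03 with Cpd18. Cpd6 mice lay above all vehicle mice, and the rise was 0.19 (SE 0.06, limma adjusted p = 0.0486), a call kept only without vehicle replicate 4 among 8 fits with 1 mouse left out (0.16 to 0.23) and lost with no low-signal limit (limma adjusted p = 0.0589). Cpd6 minus Cpd18 for Krt1 was 0.10 (95% interval −0.02 to 0.23). The Cpd2 effect of Study 1 minus that of Study 2 was 0.21 (SE 0.13) for Krt1, 0.32 (SE 0.10) for Krt10, 0.70 (SE 0.25) for Krt77, 0.69 (SE 0.27) for Krt78 and 0.59 (SE 0.20) for Krt80, and none of these passed (lowest limma adjusted p = 0.0898). Vehicle mice differed between studies in these genes, with Krt78 at 8.66 to 9.79 in Study 1, 9.44 to 10.03 in Study 2 and 10.48 to 10.78 in Study 4, and that difference, in which study, time and handling cannot be told apart, was not tested.

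Of the 3 activated keratins, 1 rose with Cpd2 in Study 1. Krt16, the type I keratin induced in hyperproliferative epidermis, had 7.51 to 9.27 with vehicle (median 8.53), 7.96 to 9.87 with Cpd1 (median 9.02) and 8.39 to 10.71 with Cpd2 (median 9.55). The groups overlapped, and the rise was 2.09-fold (1.06, SE 0.33, limma adjusted p = 0.0328). That call was lost in 8 of 16 fits with 1 mouse left out (0.90 to 1.23, those lacking vehicle replicate 1, 2, 3 or 6, or replicate 2, 3, 4 or 7 of Cpd2) and in the fit that left out the 3 low-muscle mice (0.65, limma adjusted p = 0.362). Its partner Krt6a had 0.69 (SE 0.29, limma adjusted p = 0.121), and Krt17, also made in the outer root sheath, had 0.26 (SE 0.09, limma adjusted p = 0.0675). In Study 2 Krt16 had 0.54 with Cpd2 and 0.51 with Cpd6, Krt6a −0.37 and −0.34, and in Study 4 Krt16 had −0.51 and Krt6a −0.62 with Cpd6, none of them called.

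Krt6a and Krt17 sit both in the follicle and in activated epidermis, and both varied with the hair matrix list within groups. With that list as a covariate, Krt6a was called higher with Cpd2 in Study 1 (0.93, limma adjusted p = 0.00295), and Cpd6 minus Cpd18 in Study 4 turned from −0.05 to 0.98 (limma adjusted p = 0.00505). Krt17 was also called in that fit of Study 1 (0.35, limma adjusted p = 0.000147). Both were called as well with no covariate when vehicle replicate 4 of Study 1 was left out. Krt6a then had 0.92 (limma adjusted p = 0.00935) and Krt17 had 0.34 (limma adjusted p = 0.00197). That mouse was the highest of its group for Krt6a (11.67, the others 9.41 to 10.38). In Study 4 the list did not overlap between Cpd6 mice (5.48 to 5.78) and Cpd18 mice (5.82 to 7.45). Treatment and hair matrix level therefore cannot be told apart in the value of 0.98.

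Krt15, a keratin of basal cells and of the follicle bulge, was near the top of the array's scale in every mouse, at 12.07 to 12.96 over the 48. It was called higher in Cpd2 minus Cpd1 (0.29, SE 0.07, limma adjusted p = 0.00724), with Cpd2 mice at 12.77 to 12.96 and Cpd1 mice at 12.07 to 12.79, and had 0.15 (SE 0.07, limma adjusted p = 0.182) against vehicle. In Studies 2 and 4 its differences from vehicle lay between −0.02 and 0.15, and none was called. Krt10 was as bright as Krt15, with a mean of 12.70 over the 48 arrays for each. Krt17 (12.57), Krt79 (12.03), Krt1 (11.97) and Krt77 (11.84) were not far below. Whether high signal made differences of these genes smaller was not tested.

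Krt79, the keratin of the sebaceous duct, was not called lower with a skin-positive compound in any study. Vehicle mice of Study 2 had 11.96, 11.46, 11.70 and 11.46, Cpd2 mice 12.01, 12.19, 12.18 and 12.23, and Cpd6 mice 11.91, 12.32, 11.92 and 12.21. Cpd2 mice lay above all vehicle mice, with a difference of 0.51 (SE 0.12, limma adjusted p = 0.185), and Cpd6 had 0.45 (SE 0.12, limma adjusted p = 0.117). In Study 1 Cpd2 had 0.22 against vehicle (SE 0.08, limma adjusted p = 0.0563) and was called higher than Cpd1 (0.38, SE 0.08, limma adjusted p = 0.00155). In Study 4 Krt79 had 0.19 (SE 0.11) with Cpd6 and 0.07 (SE 0.11) with Cpd18. Of 7 sebocyte markers tested in the same mice, 4 were called lower with Cpd2 in Study 1 (median −0.73), 1 with Cpd2 and 2 with Cpd6 in Study 2 (medians −0.40 and −0.70), 4 with Cpd6 in Study 4 (median −0.69) and 0 with Cpd1 or Cpd18. In the Cpd2 and Cpd6 comparisons, in that order, 6.00%, 0.0868%, 0.288% and 6.17% of all probesets were called lower.

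Among the keratins of simple epithelium, Krt23 changed in opposite directions. In Study 1 it had 10.04 to 11.20 with vehicle (median 10.51), 10.63 to 11.09 with Cpd1 (median 10.96) and 11.15 to 11.61 with Cpd2 (median 11.40). It rose 1.74-fold with Cpd2 (0.80, SE 0.13, limma adjusted p = 0.000118), and lay above all Cpd1 mice (0.48, SE 0.13, limma adjusted p = 0.0103). In Study 2 it had 11.47, 11.32, 11.14 and 11.48 with vehicle and 11.31, 11.19, 11.08 and 11.68 with Cpd2, a difference of −0.04 (SE 0.12). The Cpd6 mice of Study 2 were no lower than vehicle, at 11.57, 11.69, 11.54 and 11.34, and Krt23 was not called there. The Cpd2 effects of the 2 studies differed by 0.83 (SE 0.19, limma adjusted p = 0.0291), the 1 keratin of 38 called in that contrast, where 0.726% of all probesets were. With the 3 low-muscle mice left out that difference was 0.78 (limma adjusted p = 0.103).

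In Study 4 Krt23 fell with Cpd6, by 0.24 (SE 0.07, limma adjusted p = 0.0379), from 11.12, 11.03, 11.09 and 11.21 with vehicle to 10.78, 10.88, 10.99 and 10.83. The groups did not overlap, as for 18.9% of all probesets, and the call was lost in 6 of 8 fits with 1 mouse left out (−0.28 to −0.21, kept without Cpd6 replicate 3 or vehicle replicate 2). Krt20, a keratin of gut epithelium and of Merkel cells in skin, fell with Cpd6 in Study 4 by 0.62 (SE 0.16, limma adjusted p = 0.0277), from 4.83, 5.12, 4.71 and 5.48 to 4.60, 4.55, 4.25 and 4.26, and lost the call in 3 of 8 such fits (−0.73 to −0.47, without Cpd6 replicate 3 or 4 or vehicle replicate 4). It had −0.64 (SE 0.25, limma adjusted p = 0.302) with Cpd6 in Study 2, with groups that did not overlap, as for 6.83% of all probesets.

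**Figure D5:**
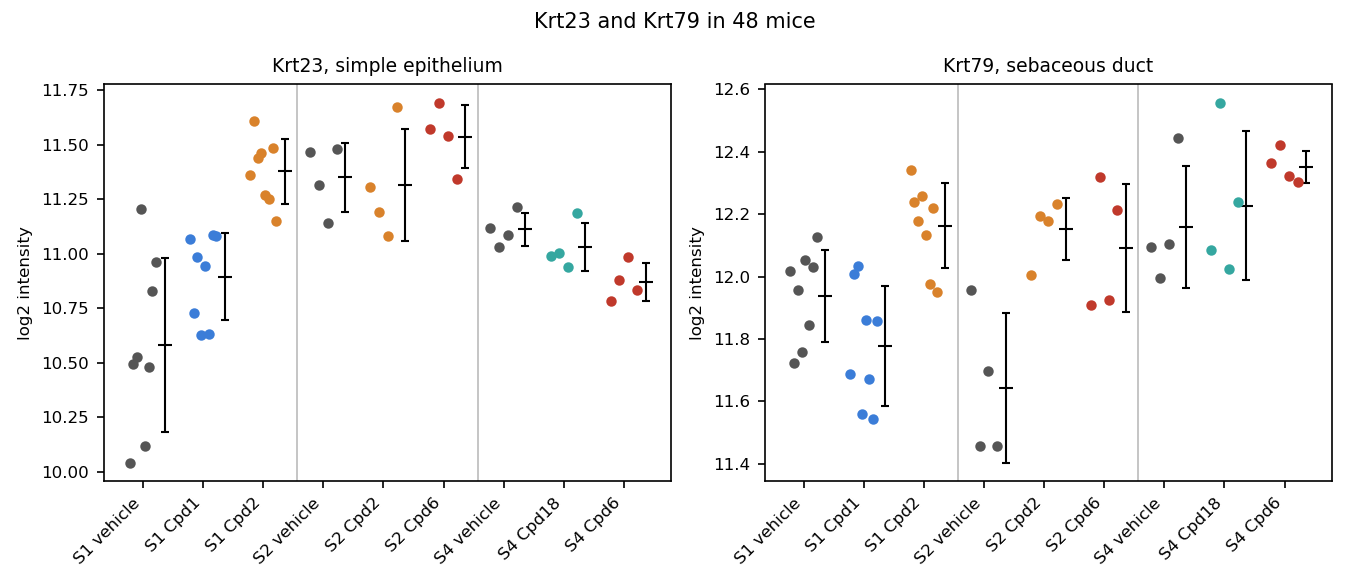
Log2 intensity of Krt23 and Krt79 in each of the 48 mice (points, coloured by treatment), by study and treatment group, with the group mean and SD as black bars. Krt23 is higher with Cpd2 than with Cpd1 in Study 1 and lower with Cpd6 than with vehicle in Study 4, and Krt79 is not lower with Cpd2 or Cpd6 in any study.

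Krt7, a keratin of gland and duct epithelium, rose with Cpd2 in Study 1 by 0.59 (SE 0.15, limma adjusted p = 0.00667), from 5.40 to 6.21 with vehicle (median 5.91) to 6.02 to 7 (median 6.42). Krt8, the type II partner of Krt18 in simple epithelium, was called only in Cpd2 minus Cpd1 (0.64, SE 0.18, limma adjusted p = 0.0148) and had 0.24 (SE 0.18) against vehicle. Vehicle replicate 4 was high for Krt8 (7.16), and without it the difference from vehicle was 0.42 (limma adjusted p = 0.0136), the 1 of 16 fits with 1 mouse left out in which it was called. In Study 4 Krt8 had 5.39, 5.59, 5.67 and 5.55 with Cpd6 and 5.12, 4.96, 4.83 and 5.04 with Cpd18, apart from each other, as for 6.37% of all probesets (0.56, SE 0.17, limma adjusted p = 0.192). Krt4, a mucosal keratin that had low signal here, rose by 0.43 with Cpd2 in Study 1 (SE 0.13, limma adjusted p = 0.0266), lost in 4 of 16 fits with 1 mouse left out (0.34 to 0.49, those lacking vehicle replicate 1 or 2, or replicate 2 or 3 of Cpd2) and with the 3 low-muscle mice left out (0.39, limma adjusted p = 0.105). Krt42 was called in Cpd2 minus Cpd1 (0.44, SE 0.16, limma adjusted p = 0.0495), kept in 4 of 16 such fits (0.34 to 0.50, without Cpd1 replicate 3 or 5 or Cpd2 replicate 5 or 6).

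The remaining keratins were not called in any comparison. Krt19, a keratin of simple epithelium and of the follicle bulge, had −0.36 (SE 0.14, limma adjusted p = 0.1003) with Cpd2 in Study 1 and −0.71 (SE 0.26, limma adjusted p = 0.264) with Cpd6 in Study 2. Krt9, the keratin of palm and sole epidermis, differed from vehicle by −0.29 to 0.46 over the 6 comparisons, and Krt24 by −0.46 to 0.30. Krt13 and Krt76, keratins of the oral lining, lay between 1.81 and 3.18 in every mouse, and Krt222 between 1.07 and 2.29.

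The compounds were also set against each other directly. Cpd6 and Cpd2, 2 skin-positive compounds of different series at the same stated dose in Study 2, had 0 of 38 keratins called and 0 with an unadjusted p under 0.05, where 0% of all probesets were called and 8.23% had an unadjusted p under 0.05. For Krt75 Cpd6 minus Cpd2 was 0.19 (95% interval −0.63 to 1.02), for Krt71 −0.70 (−3.72 to 2.33), for Krt31 −0.87 (−3.45 to 1.71) and for Krt77 0.21 (−0.04 to 0.47). The intervals of the follicle keratins leave room for several-fold differences either way. Over 3 pairs of compounds and 38 keratins, Cpd2 against Cpd1 was the pair with called keratins. The effect of Cpd6 in Study 4 minus that in Study 2 had 0 of 38 keratins called (0% of all probesets, 1 keratin with an unadjusted p under 0.05), at −0.13 for Krt75 (95% interval −1.60 to 1.34) and 0.04 for Krt71 (−5.31 to 5.39). Comparisons of 1 study share their vehicle mice, so their values are not independent of each other.

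Genes that work with keratins were counted from 3 lists. Of 15 filament linkers tested, which are the desmosome and hemidesmosome proteins that anchor keratin filaments, 10 were called higher and 0 lower with Cpd2 in Study 1 (median 0.33), where 7.09% of all probesets were called higher. They were led by Eppk1 (0.59, SE 0.09, limma adjusted p = 6.72e-05), a plakin that binds keratin, Dsc1 (0.57, SE 0.09, limma adjusted p = 0.000139), a desmosomal cadherin of upper epidermis, and Itgb4 (0.62, SE 0.10, limma adjusted p = 0.000201), the hemidesmosome integrin. Cpd6 had 1 higher in Study 2, Eppk1 (0.47, SE 0.08, limma adjusted p = 0.0184), and 4 higher in Study 4, led by Plec (0.36, SE 0.07, limma adjusted p = 0.00999), and 0 lower in both. Of all probesets 0.0903% were called higher in Study 2 and 4.56% in Study 4. Cpd1, Cpd18 and Cpd2 in Study 2 had 0 called.

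Of 15 regulators of keratin genes tested, 6 were called higher and 0 lower with Cpd2 in Study 1 (median 0.25, against the same 7.09% of all called higher), led by Grhl3 (0.92, SE 0.12, limma adjusted p = 1.48e-05) and Tfap2c (0.51, SE 0.08, limma adjusted p = 0.00011), both transcription factors of epidermal differentiation, and Klf4 (0.36, SE 0.07, limma adjusted p = 0.00128), a barrier factor. With Cpd6 in Study 4, 1 was called higher, Cebpa, and 1 lower, Hoxc13, where 4.56% of all were called higher and 6.17% lower, and the other comparisons with vehicle had 0 called. Of 11 cornified envelope genes tested, 4 were called higher and 0 lower with Cpd2 in Study 1 (median 0.43, again beside 7.09% of all): Lce1a1 (1.02, SE 0.14, limma adjusted p = 1.53e-05), Lce1b, Lor and Tgm1. With Cpd6 in Study 4, Cdsn and Lor were called higher and Sprr2d lower (−2.14, SE 0.59, limma adjusted p = 0.0348), and no gene of the list was called in Study 2 or with Cpd1 or Cpd18. Genes of these lists were chosen as partners of keratins with earlier results of these data known.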

How the data were processed

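Per the labels and the study's methods, RNA from skin biopsies of 48 mice was hybridized to custom Affymetrix mouse arrays, 1 array per mouse, and the authors deposited linear intensities after robust multi-array averaging (RMA), 1 column per mouse. Versions of that software and the array batches are not given in the sources used here. Intensities were put on the log2 scale. Probesets were named from the platform annotation, in which 24478 had 1 gene, 65 several and 13842 none, and probesets with several were not used. Keratin symbols were matched to RefSeq, which also gave the promoter windows (GRCm38.p6). All columns were used, and no arrays were identical.

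Probesets with a mean over the 48 arrays at or above the 25th percentile (2.93 on the log2 scale) were kept, 28789 of 38385. Each study was fitted alone in limma 3.58.1 (R 4.3.3), with 1 mean per group and an intensity trend in the variance, and p-values were adjusted by Benjamini-Hochberg over all kept probesets. Probesets with an adjusted p under 0.05 are referred to as called, higher or lower. Differences between the effects of 1 compound in 2 studies came from 1 fit over all arrays. The median of all probesets moved by at most 0.04 in any comparison, and values are not recentred on it.

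The 28 named keratins were all tested ones of the basal, suprabasal, activated, sebaceous duct and companion layer sites, the 4 with the highest mean of the inner root sheath and of the hair shaft, and any other keratin called within a study. Up to 3 called partner genes per list were named by lowest p, and where a list had 5 or fewer calls the rest were named too. The members and lists were chosen with earlier results of these data known. Alternatives were quantile normalization, no filter or a 50th percentile filter, 1 fit over all 48 arrays, the replicate number as a block, the hair matrix level as a covariate, the methods' one-way analysis of variance (on 2 groups, where it equals an equal-variance t-test), and leaving out each mouse. Leaving out the 3 low-muscle mice was added after the data were seen. On simulated data for 28789 probesets with 200 changed 2-fold, 91% were recovered for Cpd2 in Study 1, 62.5% for Cpd6 in Study 2 and 73.5% for Cpd6 in Study 4. Of the calls 3.70%, 3.85% and 6.37% were false. The changed probesets were drawn at random, with normal noise at each probeset's own within-group SD. That SD was 2.82 for Krt71 and 3.19 for Krt25, so these shares do not hold for the widely spread follicle keratins. The arrays carry no depth, so precision is limited by the number of mice. Summaries and plots used Python 3.11.15, pandas 2.3.3, numpy 2.4.6, scipy 1.17.1 and matplotlib 3.10.9.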

Additional observations from a re-analysis of the deposited data

Results flagged for a closer look

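Of 252 groups of 4 or 8 mice examined for the named keratins, 27 held 1 mouse whose level lay far from the rest of its group, and about 1 in 20 groups would do so by chance. In the inner root sheath and hair shaft most of these mice recurred. Vehicle replicate 2 of Study 4 was the lowest of its group for Krt25 (4.50), Krt27 (3.63), Krt71 (3.22), Krt73 (2.80), Krt33a (4.22) and Krt34 (3.41). Cpd18 replicate 1 of Study 4 was the lowest for Krt25 (6.55), Krt27 (4.87), Krt71 (3.66) and Krt73 (4.75). Vehicle replicate 1 of Study 2 was the lowest for Krt25 (5.59). Cpd6 replicate 3 of Study 2 was the highest of its group for Krt25 (9.04), Krt71 (5.93) and Krt34 (5.39), and Cpd6 replicate 4 of Study 4 for Krt35 (2.60) and Krt86 (3.62). Cpd2 replicate 2 of Study 1 was the highest for Krt35 (7.73), Cpd2 replicate 4 of Study 2 for Krt75 (8.96), and Cpd2 replicate 1 of Study 2 was the lowest for Krt40 (4.48).

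Outside the follicle the lone mice were fewer. Cpd1 replicate 6 of Study 1 was the lowest for Krt15 (12.07) and Krt80 (7.45), and vehicle replicate 4 of Study 1 was the highest for Krt6a (11.67) and Krt8 (7.16). Krt2 was highest in vehicle replicate 4 of Study 4 (8.34), Krt17 in Cpd6 replicate 2 of Study 4 (12.71), Krt80 was lowest in Cpd6 replicate 2 of Study 2 (8.24) and Krt8 in Cpd2 replicate 1 of Study 2 (5.32). None of these mice was left out of the values in the report unless a sentence says so.

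The effect of Cpd2 on Krt23 differed between Study 1 and Study 2 by 0.83 (limma adjusted p = 0.0291), as tested in the fit over all arrays. Vehicle levels of Krt23 were 10.04 to 11.20 in Study 1 and 11.14 to 11.48 in Study 2, while Cpd2 levels overlapped, at 11.15 to 11.61 and 11.08 to 11.68.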

How the results depend on the processing

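Counts of keratins called of 38 moved by over 1.5 times from the values in the report under these settings. With the hair matrix level as a covariate they were 2 for Cpd1 minus vehicle (0 in the report), 0 for Cpd2 and 0 for Cpd6 minus vehicle in Study 2 (1 each), 0 for Cpd6 minus vehicle in Study 4 (6), 1 for Cpd6 minus Cpd18 (0) and 3 for the Cpd2 effect in Study 1 minus Study 2 (1). That covariate also turned Krt35 with Cpd6 in Study 4 to 0.26 and Krt6a in Cpd6 minus Cpd18 to 0.98. In both comparisons the hair matrix levels of the groups did not overlap, so level and treatment cannot be told apart. The methods' one-way analysis of variance, run on 2 groups at a time, at the methods' threshold gave 1 for Cpd1, 2 for Cpd2 and 2 for Cpd6 in Study 2, 0 for Cpd6 in Study 4 and 1 for Cpd6 minus Cpd18, and after adjustment 0, 0 and 0 for Cpd2 and Cpd6 in Study 2 and Cpd6 in Study 4. For Cpd6 in Study 4 the 50th percentile filter gave 10 and 1 fit over all 48 arrays gave 1. Leaving out the 3 low-muscle mice gave 6 for Cpd2 minus Cpd1 (11) and 0 for the difference between the Cpd2 effects. The cause was not tested.

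Correlations of same-numbered mice ran from −0.44 to 0.38, with medians of −0.04 in Study 1, −0.03 in Study 2 and 0.11 in Study 4. Differently numbered mice of those studies had medians of 0.01, 0.01 and −0.04. In Study 4, 7 of 12 same-numbered pairs were over 0.1, against 10 of 36 other pairs, so pairing by number there was not settled. With the replicate number as a block 0 keratins were called for Cpd2 and 0 for Cpd6 in Study 2. That block gave 9 for Cpd6 in Study 4 (all lower) and 7 for Cpd2 in Study 1. With 1 mouse left out, counts ran from 7 to 13 for Cpd2 in Study 1 (highest without vehicle replicate 4), 10 to 11 for Cpd2 minus Cpd1, 0 to 12 for Cpd2 and 0 to 17 for Cpd6 in Study 2 (highest without vehicle replicate 1), 1 to 21 for Cpd6 in Study 4 (lowest without Cpd6 replicate 1, highest without vehicle replicate 2) and 0 to 3 for the Cpd2 difference between studies. The other comparisons stayed at 0 in every such fit. Of values of single keratins under the settings other than leave-one-out, 2033 kept their direction and side of the threshold or were called in neither fit, 46 lost a call, 19 gained one and 2 reversed. Quantile normalization and no filter left each count within 1.5 times.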

Other observations

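Some keratins moved together within groups outside the follicle as well, over the 48 mice and with group means taken away. Krt77 and Krt78, both type II keratins of differentiating epidermis, correlated at 0.93, while Krt1 and Krt77 correlated at 0.16 and Krt1 with its partner Krt10 at 0.77. Krt8 and Krt18, the simple epithelium pair, correlated at 0.76, and Krt18 also followed the hair matrix list (0.86) where Krt8 followed it less closely (0.57). Krt6a correlated with Krt17 at 0.80 and with Krt75 at 0.76, and Krt16 with Krt17 at 0.58. Krt16 had a correlation of −0.50 with the skeletal muscle list, and Krt42 −0.42. These are values over mice that share arrays and normalization, and no cause was tested.

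Krt90 and Krt18 were singled out after their values were seen. Krt90 had −1.51 (SE 0.41, limma adjusted p = 0.131) with Cpd6 in Study 2 and followed the hair matrix list at 0.80. Krt18 had 1.34 (SE 0.56, limma adjusted p = 0.122) with Cpd2 in Study 1, and neither was called.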
